A study of Mus musculus with 6 samples.

Results

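Serum amyloid A, orosomucoid, lipocalin and haptoglobin genes encode proteins that the liver secretes into the blood. They are described here in livers of newborn mice whose mothers ate diets with different oils. The 10 genes are Saa1, Saa2, Saa3, Saa4, Orm1, Orm2, Orm3, Lcn2, Hp and Dmbt1, out of 19938 genes with a value on the arrays. They were picked by name, with earlier results of these arrays in view. Each gene was to be represented by the brightest of its probes annotated to 1 gene, by the mean over all arrays. Each of the 10 had 1 such probe, so the rule for the brightest probe decided nothing. Genes with a mean log2 signal of at least 5 over the arrays were tested. Saa1 and Dmbt1 reached this minimum only through their high signal on ALA. Orm3 was below 5 on SFA but above it on Control and ALA.

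The animals were C57Bl6/J mice, and each maternal diet contained 6 g% of oil. The diets had equal calories. The oil came from soybean in the control diet (Control), from flaxseed in the ALA diet and from coconut in the SFA diet. Alpha-linolenic acid, an omega-3 fatty acid abbreviated ALA, was the main fatty acid of the ALA diet at 31.6%, and saturated fatty acids (SFA) were that of the SFA diet at 48.51%. The sires ate the dams' diet only while mating. Livers were taken from pups no older than 1 day, and each array carried RNA from a pool of 3 livers. Each diet had 2 arrays. Whether the duplicate pools held different animals is not given, so p-values measure only the spread between these arrays. For ALA and SFA this spread may be technical. The Control arrays differed from each other in the signal of sex-linked genes, so their pools did not hold the same 3 livers.

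Acute phase proteins are plasma proteins whose synthesis in hepatocytes changes during inflammation. Interleukin-6, acting through its receptor and the transcription factor STAT3, and interleukin-1 and tumour necrosis factor, acting through NF-kB and C/EBP factors, are the classical inducers, and glucocorticoids enhance the response. SAA1 and SAA2 are the main inducible serum amyloids of mouse liver and travel on high density lipoprotein. SAA3 is also made by macrophages and fat tissue, and SAA4 is known as the constitutive form. Lipocalin-2 binds bacterial siderophores and so keeps iron from bacteria.

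The promoter windows of the inducible genes are shown because neighbouring genes of 1 family differed in how far their signal ranged. RefSeq (GRCm38.p6) windows of 300 bases, from 250 before to 50 after the gene start, were found for 7 of the 10 genes, and the 250 bases before the start are printed for 5 of them. Capitals mark matches to TTGCNNAA, a C/EBP motif, on either strand. Saa1 and Saa2 lie near each other on chromosome 7 in opposite orientation, at chr7:46740497-46743181 and chr7:46751833-46754313. The printed windows are chr7:46742981-46743230 (minus strand) for Saa1, chr7:46751583-46751832 (plus) for Saa2, chr4:63362199-63362448 (plus) for Orm2, chr4:63355908-63356157 (plus) for Orm3 and chr2:32387740-32387989 (minus) for Lcn2. Each window is set on 1 start of the gene, while the gene coordinates given here span all its annotated transcripts. For Saa1, Saa3 and Orm3 these differ, so that their windows lie partly or wholly within the span of the gene.
Saa1: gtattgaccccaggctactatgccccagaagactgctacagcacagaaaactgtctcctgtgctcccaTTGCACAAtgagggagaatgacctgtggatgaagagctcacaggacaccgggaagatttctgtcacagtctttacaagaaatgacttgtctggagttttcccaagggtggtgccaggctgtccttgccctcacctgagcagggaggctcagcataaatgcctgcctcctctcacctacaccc
Saa2: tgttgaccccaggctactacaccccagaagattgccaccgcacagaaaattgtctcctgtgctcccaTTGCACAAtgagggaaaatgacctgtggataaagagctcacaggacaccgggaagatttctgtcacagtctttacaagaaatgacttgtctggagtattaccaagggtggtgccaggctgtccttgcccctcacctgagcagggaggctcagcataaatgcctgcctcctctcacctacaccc
Orm2: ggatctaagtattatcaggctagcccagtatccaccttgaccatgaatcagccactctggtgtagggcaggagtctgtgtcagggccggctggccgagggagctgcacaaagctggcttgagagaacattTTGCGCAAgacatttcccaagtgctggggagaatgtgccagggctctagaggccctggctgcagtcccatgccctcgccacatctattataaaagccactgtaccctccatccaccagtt
Orm3: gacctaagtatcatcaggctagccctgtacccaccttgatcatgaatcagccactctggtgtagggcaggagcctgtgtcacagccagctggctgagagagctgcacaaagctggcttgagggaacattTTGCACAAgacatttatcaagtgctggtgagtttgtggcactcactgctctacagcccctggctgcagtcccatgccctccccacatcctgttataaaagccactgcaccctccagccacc
Lcn2: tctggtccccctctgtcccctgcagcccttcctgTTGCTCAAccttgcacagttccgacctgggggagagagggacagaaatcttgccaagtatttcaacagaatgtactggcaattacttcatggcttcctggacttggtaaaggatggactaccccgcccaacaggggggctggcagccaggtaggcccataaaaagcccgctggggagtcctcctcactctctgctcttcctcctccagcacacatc

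The Saa1 and Saa2 windows were identical at 94.8% of aligned columns and the Orm2 and Orm3 windows at 85.5%. The Saa3 window was 48.9% and the Saa4 window 42.6% identical to that of Saa1. A C/EBP match was found in 7 of 7 windows, including Saa3, where it lies on the minus strand, and Saa4, which held 2. The same motif was found in 10.8% of the 27025 RefSeq windows of this length. In Saa1 and Saa2 the match began 182 and 183 bases before the start and read TTGCACAA. In Orm3 it read TTGCACAA and in Orm2 TTGCGCAA, at 121 and 120 bases before the start. The other motifs searched, again on either strand, were an NF-kB motif (GGGA, any 4 bases, CC) and TTCNNNGAA for STAT. Neither had a match in the 7 windows, against 20.5% and 8.47% of all windows. No match says only that these letters are not in these windows. A match is a stretch of letters and not a measured binding site.

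**Figure D1:**
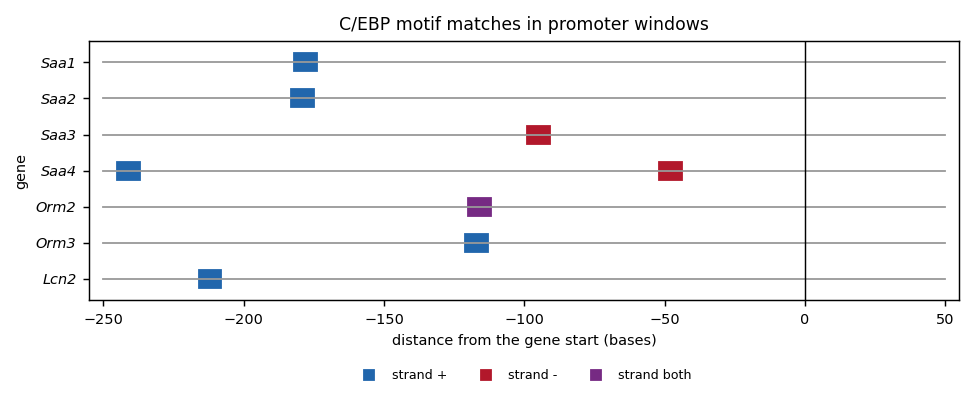
Matches to the C/EBP motif TTGCNNAA in the promoter windows of the 7 genes with a RefSeq window. The horizontal axis is the distance from the gene start in bases, each line is 1 gene, and coloured boxes mark the matches by strand. Saa1 and Saa2 have the match at nearly the same distance (182 and 183 bases before the start), as do Orm3 and Orm2 (121 and 120).

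The median log2 signal of all probes was 4.94 and 4.95 on Control, 4.90 and 4.96 on ALA, and 4.76 and 4.82 on SFA. The 75th percentile was also lowest on SFA, at 6.68 and 6.63, against 6.75 to 6.77 on the other arrays. Small differences of SFA from the other diets therefore depend on the scaling. For Hp, SFA minus Control moved from -0.29 to -0.19 with centring on the 75th percentile. Duplicate arrays correlated with r from 0.977 to 0.986 across the 10977 tested genes, and arrays of different diets from 0.927 to 0.964. These correlations run across genes, which are not independent of each other. The liver label held: 11 of 11 measured hepatocyte genes were above the signal minimum, and albumin (Alb) ran from 12.58 to 12.75 on the 6 arrays. The sex-linked genes were not balanced between the pools. The Y-linked Eif2s3y had a signal of 3.63 on Control replicate 1 and 7.95 on Control replicate 2, of 7.74 and 7.80 on ALA, and of 4.11 and 3.79 on SFA. Xist, which is expressed from the inactive X chromosome of female cells, was at 10.67 on Control replicate 1, 8.34 on Control replicate 2, 9.46 and 9.51 on SFA, and 3.76 and 4.24 on ALA. Genes of the fetal and the maturing liver differed between the control arrays and the rest: Cyp3a16, a fetal cytochrome P450 gene, was at 4.64 and 4.03 on Control and between 7.48 and 9.57 on the other arrays, and Mup3, a major urinary protein gene, was at 11.50 and 11.96 on Control and between 8.26 and 9.89 on the others. Of 6 tested erythroid genes 3 rose on ALA and 3 on SFA, each against control, with 5.11% and 6.62% of all genes called higher. The pools carry the same age in the labels and no sex, and the arrays are grouped as labelled. These values leave the match of the control pools to the others in doubt, which bears on each difference from control. The part of sex, of liver maturity and of blood-forming cells in the differences between diets was not tested.

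The inducible serum amyloid genes had their highest signal on ALA replicate 1 and low signal on SFA and on Control replicate 1. Saa1 (probe 10563611) had a log2 signal of 3.43 and 5.61 on Control, 8.95 and 6.63 on ALA, and 2.94 and 4.00 on SFA, giving diet means of 4.52, 7.79 and 3.47. Both ALA arrays were above the other 4, and Control and SFA overlapped. The signals on SFA and on Control replicate 1 were no higher than those of the Y-linked genes on the SFA arrays, which ran from 3.79 to 4.42, so the size of the Saa1 difference is uncertain beyond its error. Saa2 (probe 10553274) was at 5.98 and 9.17 on Control, 10.41 and 8.45 on ALA, and 5.6 and 5.67 on SFA. Here Control replicate 2 lay between the ALA arrays, whereas Control replicate 1 lay just above SFA. Saa1 and Saa2 are near-identical genes, so that transcripts of one may bind probes of the other, and their signals are uncertain as separate measurements.

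Saa3 (chr7:46711998-46719615, probe 10563597) had the same order of arrays as Saa2. Its signal was 6.25 and 7.23 on Control, 8.74 and 7.18 on ALA, and 5.21 and 5.39 on SFA. The SFA arrays were the lowest, and Control replicate 2 lay close to ALA replicate 2. Saa4 (chr7:46727992-46732603, probe 10563602) ranged less, by 1.16 over the 6 arrays against 6.00 for Saa1, 4.81 for Saa2 and 3.54 for Saa3. It was at 10.32 and 10.86 on Control, 11.27 and 10.43 on ALA, and 10.14 and 10.11 on SFA, again with Control replicate 2 between the ALA arrays and SFA lowest.

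The orosomucoid genes lie in 1 cluster on chromosome 4 and encode alpha-1-acid glycoproteins, plasma proteins that bind many drugs and steroids. Orm1 (chr4:63344556-63348163, probe 10505438) was at 11.14 and 12.01 on Control, 12.02 and 11.28 on ALA, and 10.56 and 10.36 on SFA. The control and ALA arrays overlapped, and the SFA arrays were below both. Orm2 (chr4:63362449-63365877, probe 10505451) was at 7.98 and 10.77 on Control, 11.79 and 10.97 on ALA, and 7.24 and 6.69 on SFA. The diets did not overlap for Orm2, with ALA highest and SFA lowest, but Control replicate 2 was close to ALA replicate 2, and Control replicate 1 was closer to SFA than to the other control array. Orm3 (chr4:63356069-63359506, probe 10505445) was at 6.00 and 6.16 on Control, 8.34 and 6.86 on ALA, and 5.00 and 4.66 on SFA. Its control arrays were close together, and the diets again did not overlap. The 3 genes are near copies of one another, and cross-binding of their transcripts was not tested.

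Lcn2 and Dmbt1 differed from the rest in where SFA lay. Lcn2 (chr2:32384637-32387739, probe 10481627) was at 7.63 and 9.86 on Control, 11.91 and 11.10 on ALA, and 9.38 and 9.45 on SFA. The ALA arrays were highest, and the SFA arrays fell between the control arrays. Dmbt1 (chr7:131032057-131121628, probe 10558159), which encodes a scavenger receptor cysteine-rich protein of epithelia and bile ducts, was at 3.98 and 3.68 on Control, 8.15 and 7.0 on ALA, and 5.72 and 5.13 on SFA. It had the order Control, SFA, ALA with no overlap, and its control signals were no higher than those of the Y-linked genes on SFA, so the size of its difference from control is uncertain too. Hp (chr8:109575128-109579172, probe 10581605) encodes haptoglobin, which captures free haemoglobin. It ranged least, with 11.49 and 11.86 on Control, 12.09 and 11.81 on ALA, and 11.39 on each SFA array.

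**Figure D2:**
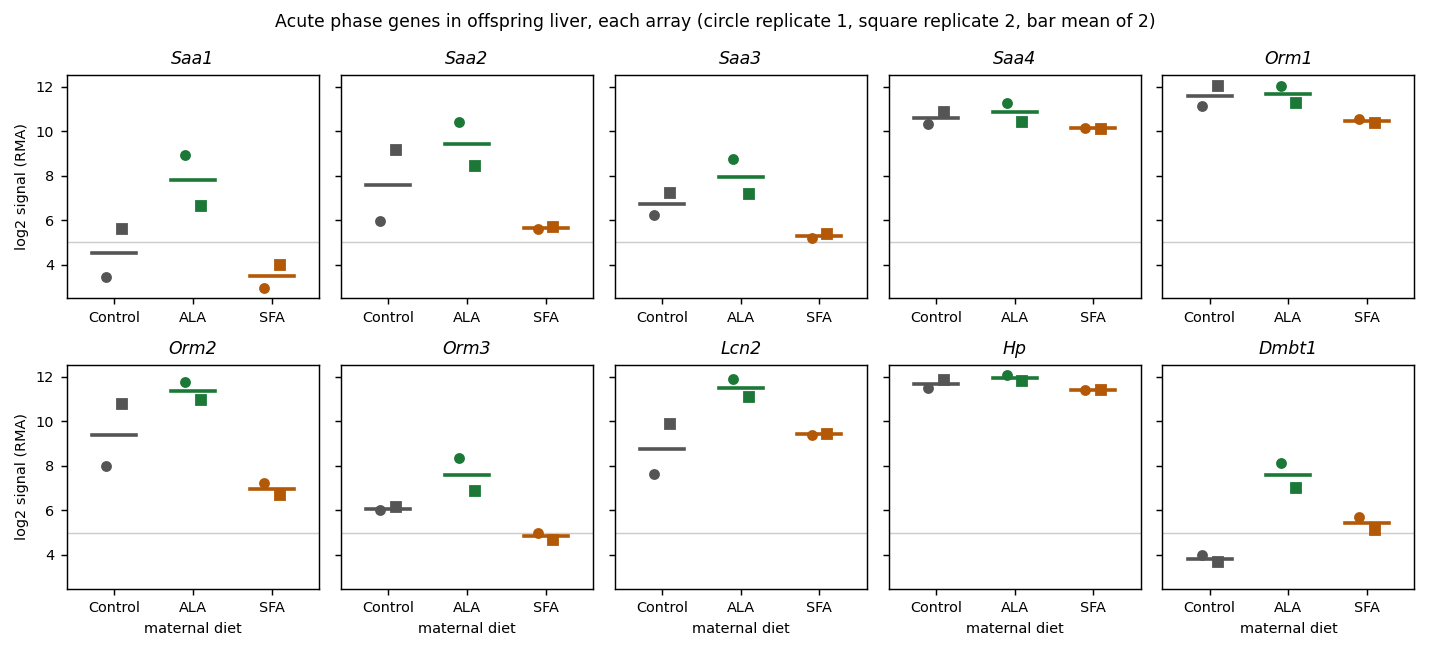
Log2 signal (vertical axis) of the 10 genes by maternal diet (horizontal axis), with circles for replicate 1, squares for replicate 2, bars for the mean of the 2 arrays and a grey line at the signal minimum of 5. For Saa1, Saa2, Orm2 and Lcn2 the control replicates stand apart by 2.18, 3.19, 2.78 and 2.23, while SFA replicates lie close together for the same genes except Saa1 (replicate 1 minus replicate 2 of -1.06).

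The ALA and SFA arrays were set against each other first, because the other comparisons both use the control arrays. The 10 genes were all higher on both ALA arrays than on both SFA arrays, a pattern shown by 31.4% of all tested genes, while 54.6% had the higher mean on ALA. It was also shown by 9 of 13 tested genes that fall in the acute phase response and by 9 of 11 hepatocyte genes. None of either list showed the reverse, and their median log2 differences were 0.10 and 0.11. The lists share several genes, Alb among them, so their counts are not separate observations. The pattern alone was therefore not particular to the 10 genes. The median log2 difference of the 10 genes was 2.41, against 0.04 over all genes, and 8 of the 10 differed by at least 1, against 0.847% of all genes. The unadjusted p was below 0.05 for 10 of 10, against 22.4% of all genes. These counts describe genes that were picked with earlier results known, and they are not independent evidence. Orm2 was 21.3-fold higher on ALA (log2 difference 4.42, SE 0.80, adjusted p = 0.051, n = 2 arrays per diet) and Saa1 19.9-fold (4.31, SE 0.90, adjusted p = 0.0657). Saa2 differed by 3.80 (SE 1.00, adjusted p = 0.1), Saa3 by 2.66 (SE 0.51, adjusted p = 0.0568) and Lcn2 by 2.09 (SE 0.64, adjusted p = 0.129). These did not pass limma's test, and neither did Orm1 at 1.19, Saa4 at 0.73 and Hp at 0.57.

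Orm3 and Dmbt1 passed, as 2 of 10 genes, with 1.09% of all genes called higher and 0.437% called lower on ALA. Orm3 rose by 2.77 (SE 0.42, adjusted p = 0.0393) and Dmbt1 by 2.15 (SE 0.37, adjusted p = 0.0457). Dmbt1 was tested only because it was high on ALA, so its call is tied to the signal minimum and is no support for the comparison. Both calls were lost in each fit that left out an array other than ALA replicate 2. Without ALA replicate 1, SFA replicate 1 or SFA replicate 2, 0 of the 10 genes were called by limma (5, 8 and 9 at an unadjusted p below 0.05), and without either control array the 1 called was Orm2 (adjusted p = 0.0212). Quantile normalization and cyclic loess ended both calls as well, with an adjusted p of 0.0547 and 0.0506 for Orm3 and of 0.0596 and 0.0589 for Dmbt1, and centring on the 75th percentile ended that of Dmbt1 (0.0525). With a signal minimum of 6, at which Saa1 and Dmbt1 are no longer tested, 3 genes were called, among them Orm2 (adjusted p = 0.0388) and Saa3 (0.0433). All genes called in this contrast were 120 higher and 48 lower on ALA, a balance that became 42 and 58 after centring on the 75th percentile, 34 and 34 after quantile normalization, and 42 and 34 after cyclic loess. The median of all genes moved from 0.04 to -0.07 with the centring, and the sign of each of the 10 differences was the same under these 3 scalings. The ALA arrays are those with Y-linked signal and the SFA arrays those without, so diet and sex of the pool cannot be told apart in this comparison.

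**Figure D3:**
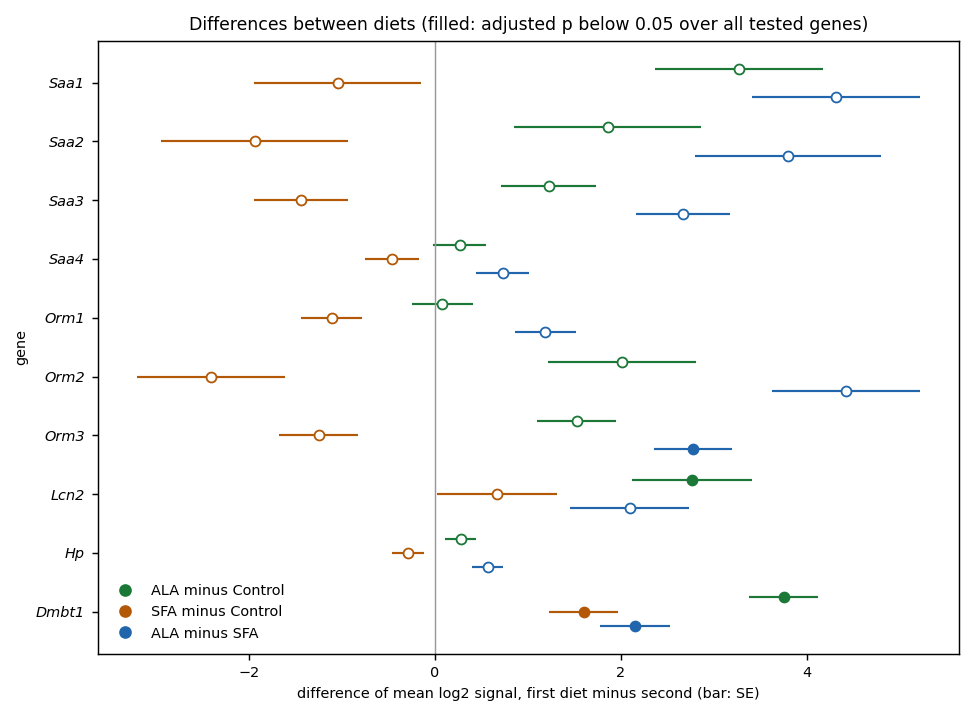
Difference of mean log2 signal between diets for each gene (horizontal axis), with bars for the standard error of the fit and filled points for an adjusted p below 0.05 over all tested genes. ALA minus SFA lies above 0 for the 10 genes, and SFA minus Control lies below 0 for 8 of them, Lcn2 and Dmbt1 being the exceptions.

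Against control, the ALA mean was higher for the 10 genes, against 48.3% of all genes, with a median log2 difference of 1.69 against -0.01. For 7 of 10 the difference was at least 1, against 2.88% of all genes. Dmbt1 was 13.4-fold higher (3.75, SE 0.37) and Lcn2 6.78-fold higher (2.76, SE 0.64). These 2 of 10 were the ones called, with 5.11% of all genes called higher and 2.82% lower. Both were already known to differ in this comparison when the genes were picked, so nothing is read from the count. Dmbt1 and Saa1 were also tested only because they were high on ALA, so the Dmbt1 call is no support for the comparison. The unadjusted p was below 0.05 for 6 of 10, against 24.7%. Lcn2 passed narrowly (adjusted p = 0.047) and lost its call in each fit that left out an array other than Control replicate 2 (adjusted p from 0.0542 to 0.177). Saa1 differed by 3.27 (SE 0.90, adjusted p = 0.073), Orm3 by 1.52 (SE 0.42, adjusted p = 0.0739), Orm2 by 2.01 (SE 0.80, adjusted p = 0.175), Saa2 by 1.86 (SE 1.00, adjusted p = 0.31) and Saa3 by 1.22 (SE 0.51, adjusted p = 0.194). None of these 5 passed limma's test. Saa4, Hp and Orm1 were at 0.26, 0.28 and 0.08. For 5 of 10 genes both ALA arrays were above both control arrays, against 27.0% of all genes.

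The size of these differences depended on the control array. In the fits with 1 control array, that array is assumed to vary like the other groups, so their p-values hold nothing of the spread between the control pools. Against Control replicate 1 alone, ALA was higher for 10 of 10 genes with a median of 2.56, and Orm2 was at 3.40 (adjusted p = 0.0201). Control replicate 2 carried Y-linked signal like the ALA arrays, but also high Xist signal, which they lacked. Against Control replicate 2 alone, ALA was higher for 8 of 10 genes with a median of 0.67. Saa2 was then at 0.26, Orm2 at 0.61, Saa4 at -0.01 and Orm1 at -0.36. Dmbt1 kept its difference against Control replicate 2 (3.90, adjusted p = 0.0158), and Lcn2 was at 1.64 (adjusted p = 0.0542). Without ALA replicate 1, Saa4 was at -0.15, Orm1 at -0.29, Saa3 at 0.44 and Lcn2 at 2.35 (adjusted p = 0.177).

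SFA was higher than control for 2 of 10 genes, against 44.8% of all genes, and lower for 8, with a median difference of -1.08 against -0.05. For 6 genes SFA was lower by at least 1, against 2.00% of all genes, and for 1 higher, against 2.98%. For 7 of the 8 lower genes both SFA arrays were below both control arrays, against 35.7% of all genes, and Saa1 overlapped. For Dmbt1 both were above, as for 28.6% of all genes. Both SFA arrays were also below both control arrays for 8 of 13 tested genes that fall in the acute phase response (0 above). The same held for 8 of 11 hepatocyte genes (1 above), and the medians of the 2 lists were -0.09 and -0.10. These lists share several genes, and the SFA arrays had the lowest median signal over all probes, as given above. Orm2 was at -2.41 (SE 0.80, adjusted p = 0.089), Saa2 at -1.94 (SE 1.00, adjusted p = 0.232), Saa3 at -1.44 (SE 0.51, adjusted p = 0.103), Orm3 at -1.25 (SE 0.42, adjusted p = 0.0937), Orm1 at -1.11 (SE 0.33, adjusted p = 0.0679) and Saa1 at -1.05 (SE 0.90, adjusted p = 0.463). These did not pass limma's test. Saa4 was at -0.46 and Hp at -0.29. Dmbt1 rose by 1.60 (SE 0.37, adjusted p = 0.0357) and was the 1 gene called, a call lost without either control array or either SFA array (adjusted p from 0.0835 to 0.16), with 6.62% of all genes called higher and 7.15% lower. The unadjusted p was below 0.05 for 5 of 10, against 31.9%. Dmbt1 reached the signal minimum only through ALA, and with a minimum of 6 it was not tested and 0 of the 10 genes were called by limma (4 at an unadjusted p below 0.05). Lcn2 was at 0.67 (SE 0.64, adjusted p = 0.513).

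This comparison too turned on the control arrays, and the same limit holds for p-values against 1 of them. Against Control replicate 1 alone, which like SFA lacked Y-linked signal, SFA was lower for 7 of 10 genes with a median of -0.27, and 0 of the 10 genes were called by limma (3 at an unadjusted p below 0.05). Saa1 was then at 0.04, Saa2 at -0.34, Orm1 at -0.67 and Orm2 at -1.02, while Lcn2 was at 1.78 (adjusted p = 0.0507) and Dmbt1 at 1.44 (adjusted p = 0.153). Against Control replicate 2 alone, SFA was lower for 9 of 10 genes with a median of -1.44. Orm2 (-3.80, adjusted p = 0.00867), Saa2 (-3.53, adjusted p = 0.0467) and Orm1 (-1.54, adjusted p = 0.0461) were called, Dmbt1 was not (adjusted p = 0.0925), and Lcn2 was at -0.45. In a fit of the control and SFA arrays alone, Orm3 (adjusted p = 0.0123) and Saa3 (adjusted p = 0.0459) were called lower on SFA as well. Over all genes, the 727 called higher and 785 called lower on SFA became 1004 and 515 with centring on the 75th percentile, 967 and 528 with quantile normalization, and 957 and 586 with cyclic loess. The comparisons with control share the 2 control arrays, so their values stand side by side and are not set against each other.

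The duplicate pools of ALA, and those of Control, differed in these genes more than in most others. ALA replicate 1 was above ALA replicate 2 for 10 of 10 genes, against 56.0% of all genes, with a median difference of 0.99 against 0.04. Saa1 differed by 2.32 between these pools, Saa2 by 1.96, Saa3 by 1.56, Orm3 by 1.48 and Dmbt1 by 1.15, the 5 that differed by at least 1, against 0.455% of all genes. Of the 10 genes 8 were among the 100 tested genes (0.911%) with the largest difference in this direction, and Saa1 and Saa2 were number 2 and 4 of 10977. Both pools had high Y-linked signal, as given above for Eif2s3y. The part of single animals in these differences was not tested.

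Control replicate 2 was above Control replicate 1 for 9 of 10 genes, against 47.8% of all genes, with a median of 0.92 against -0.01. Saa2 differed by 3.19, Orm2 by 2.78, Lcn2 by 2.23 and Saa1 by 2.18, the 4 that differed by at least 1, against 0.592% of all genes. Of the 10 genes 6 were among the 100 with the largest difference in this direction. Orm3 differed by 0.16, and Dmbt1 was lower on replicate 2 by 0.31. Unlike the ALA pools, the Control pools also differed in Y-linked signal, as given above for Eif2s3y. The part of sex in the differences between the Control pools was not tested. The SFA pools were closer, with 6 of 10 genes higher on replicate 1 against 57.1% of all genes, a median of 0.01, 0 that were higher by at least 1 (0.137% of all genes), and 0 among the largest 100. In the other direction Saa1 was higher on SFA replicate 2, with a difference of -1.06 that was number 10961 of 10977. The direction in which each pair is given was chosen after the values were seen.

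**Figure D4:**
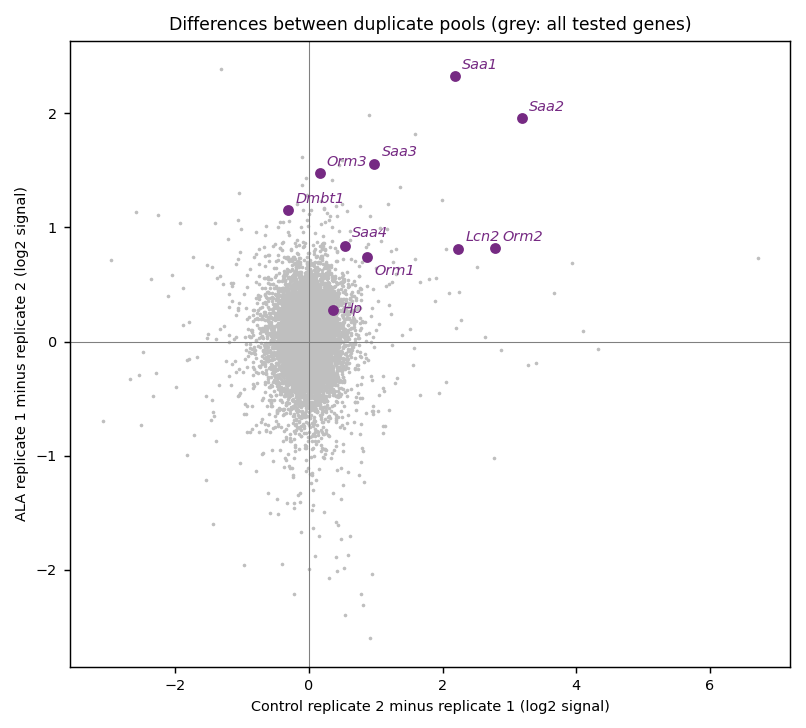
Difference between duplicate pools for each of 10977 tested genes (grey) and the 10 acute phase genes (purple), in log2 signal, for Control on the horizontal and ALA on the vertical axis. Saa1 and Saa2 lie far from the bulk of genes on both axes, at 2.18 and 3.19 for Control and at 2.32 and 1.96 for ALA, whereas Dmbt1 and Orm3 stand apart only between the ALA pools (1.15 and 1.48).

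Across the 6 arrays, Pearson's r was between 0.18 and 0.99 for the 45 pairs of the 10 genes, with a median of 0.89. It was highest for Saa2 with Hp (0.99). For the 28 pairs without Lcn2 and Dmbt1 it was between 0.76 and 0.99, with a median of 0.93. Lcn2 and Dmbt1 were set apart with their values known, so the narrower range of the other 8 genes follows in part from that choice. Lcn2 was closest to Saa1 (0.88) and Dmbt1 to Lcn2 (0.83), while Dmbt1 and Orm1 were at 0.18. These values describe 6 arrays that share diets and pools, and carry no test.

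The genes whose signal ran most like each member were sought among all tested genes by Pearson's r over the 6 arrays. For Saa2 they were Hp, Hpx, which encodes the haem carrier hemopexin and ranged from 12.02 to 12.35 (r = 0.99), and the mitochondrial ATPase gene Atad1 (0.99). For Saa4 they were Errfi1, a feedback inhibitor gene of the epidermal growth factor receptor (0.99), the lysosomal gene Plbd2 (0.99) and Cp, the gene of the copper protein ceruloplasmin (0.98). For Saa1 they were Tnip2, which encodes an A20-binding inhibitor of NF-kB and ranged from 5.21 to 5.86 (0.996), Rnf169 (0.99) and Pik3r6 (0.98). Saa3 was most like Fam214a, St6galnac2 and Urm1 (each 0.99).

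Orm1 was most like the erythroferrone gene Erfe (0.9965), Ccdc17 and the protein Z gene Proz (each 0.99), Orm2 like Phf20l1, Agxt2 and Gpat4 (each 0.99), and Orm3 like the kinase gene Akt1, Tor1b and Dmpk (each 0.99). For Lcn2 the nearest were the potassium channel gene Kcna2, B3galt1 and Zbtb37, and for Dmbt1 the catenin gene Ctnnd1, the interferon-inducible gene Ifi207 and Tbrg4 (each 0.99). B3galt1 ranged from 6.96 to 8.92 and Ifi207 from 7.24 to 8.86, while most of the others ranged over less than 1. Erfe (4.87 to 5.40), Pik3r6 (4.88 to 5.56) and Zbtb37 (4.64 to 5.49) lay near the signal minimum of 5. The r values given are the highest of 10977 values over 6 arrays and carry no test.

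Of 28 other acute phase genes tested, 3 rose and 3 fell on ALA against control, with a median of 0.03 and with 5.11% of all genes called higher and 2.82% lower. Their mean signal was 9.95 and 10.2 on Control, 10.1 and 9.78 on ALA, and 9.71 and 9.73 on SFA, so that Control replicate 2 was highest and SFA lowest. The pentraxin gene Apcs, which encodes serum amyloid P component, rose by 1.13 (SE 0.24, adjusted p = 0.0349), and the metallothionein genes Mt1 and Mt2 rose by 2.47 and 2.77. The pantetheinase gene Vnn1 fell by 1.45. Hepcidin is an acute phase hormone that blocks iron export, and its genes fell: Hamp had a signal of 11.78 and 11.61 on Control, 5.73 and 4.52 on ALA, and 3.83 and 4.85 on SFA, and Hamp2 fell by 3.17 on ALA and by 4.23 on SFA. On SFA, against the same control arrays, 3 of the 28 rose and 3 fell, with 6.62% of all genes called higher and 7.15% lower, and for 15 of the 28 both SFA arrays were below both control arrays, against 35.7% of all genes. Apcs rose by 0.99, Mt1 by 2.36 and Mt2 by 2.67, and Vnn1 fell by 1.25. Between ALA and SFA 0 of the 28 were called by limma (3 at an unadjusted p below 0.05), with a median of 0.14 and 16 of 28 higher on both ALA arrays, against 31.4% of all genes.

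Several acute phase genes with large signals differed little. C-reactive protein (Crp) ran from 10.27 to 10.76, fibrinogen beta (Fgb) from 11.98 to 12.22 and Hpx as given above. Lrg1, a leucine-rich glycoprotein gene, differed more. It was at 9.43 and 10.73 on Control, 10.72 and 9.91 on ALA, and 9.16 and 9.20 on SFA, an order of arrays close to that of Orm1. It did not pass in any contrast (adjusted p from 0.18 to 0.775). Of the 13 tested genes that fall in the acute phase response, such as Alb, 0 were called in any of the 3 contrasts by limma (1, 0 and 0 at an unadjusted p below 0.05 for ALA against control, SFA against control and ALA against SFA).

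Among receptors and regulators, 5 of 36 tested genes rose on ALA against control and 0 fell, with 5.11% of all genes called higher and 2.82% lower. The median of the 36 was -0.13, against -0.01 over all genes. The interleukin-6 receptor gene Il6ra was at 8.66 and 9.01 on Control, 9.88 and 9.80 on ALA, and 9.06 and 9.13 on SFA, and rose by 1.01 on ALA (SE 0.15, adjusted p = 0.0126). Osmr, the oncostatin M receptor gene, rose by 0.99 (SE 0.20, adjusted p = 0.0321). Cebpb, a C/EBP factor of the acute phase response, was at 7.48 and 7.70 on Control, 8.37 and 8.44 on ALA, and 8.09 and 7.70 on SFA, and rose by 0.81 (SE 0.17, adjusted p = 0.0324). The glucocorticoid-induced genes Fkbp5 and Per1 rose by 1.80 (adjusted p = 0.00282) and 1.06 (adjusted p = 0.0124). Per1 is also a clock gene. Tsc22d3, another glucocorticoid-induced gene of the list, was not among the genes called in any contrast. The part of glucocorticoids was not tested. The duplicate ALA pools were close together for Il6ra and Cebpb, as given, and for Osmr (6.61 and 6.59). The part of receptors and regulators in the signals of the 10 genes, between diets or between pools, was not tested.

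On SFA against control 6.62% of all genes were called higher and 7.15% lower. Of the 36 receptor and regulator genes 1 rose, Fkbp5 by 0.92 (adjusted p = 0.0121), and 1 fell. That was Nfkbia, the NF-kB inhibitor and target gene, which was at 8.63 and 8.71 on Control, 8.50 and 8.67 on ALA, and 8.17 and 8.10 on SFA (-0.53, SE 0.13, adjusted p = 0.0373). Between ALA and SFA, Fkbp5 was called (0.88, adjusted p = 0.0431) and Il6ra was not (0.74, adjusted p = 0.0621). Stat3 ran from 8.97 to 9.34, the shared receptor subunit gene Il6st from 9.50 to 9.78 and Cebpa from 8.76 to 9.46. Socs3, a target and inhibitor gene of STAT3 signalling, was highest on Control, at 6.56 and 6.18, and was at 6.01 and 5.81 on ALA and 5.92 and 5.66 on SFA. None of these 4 passed in a contrast. Cebpd was below the signal minimum, from 4.12 to 4.96.

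**Figure D5:**
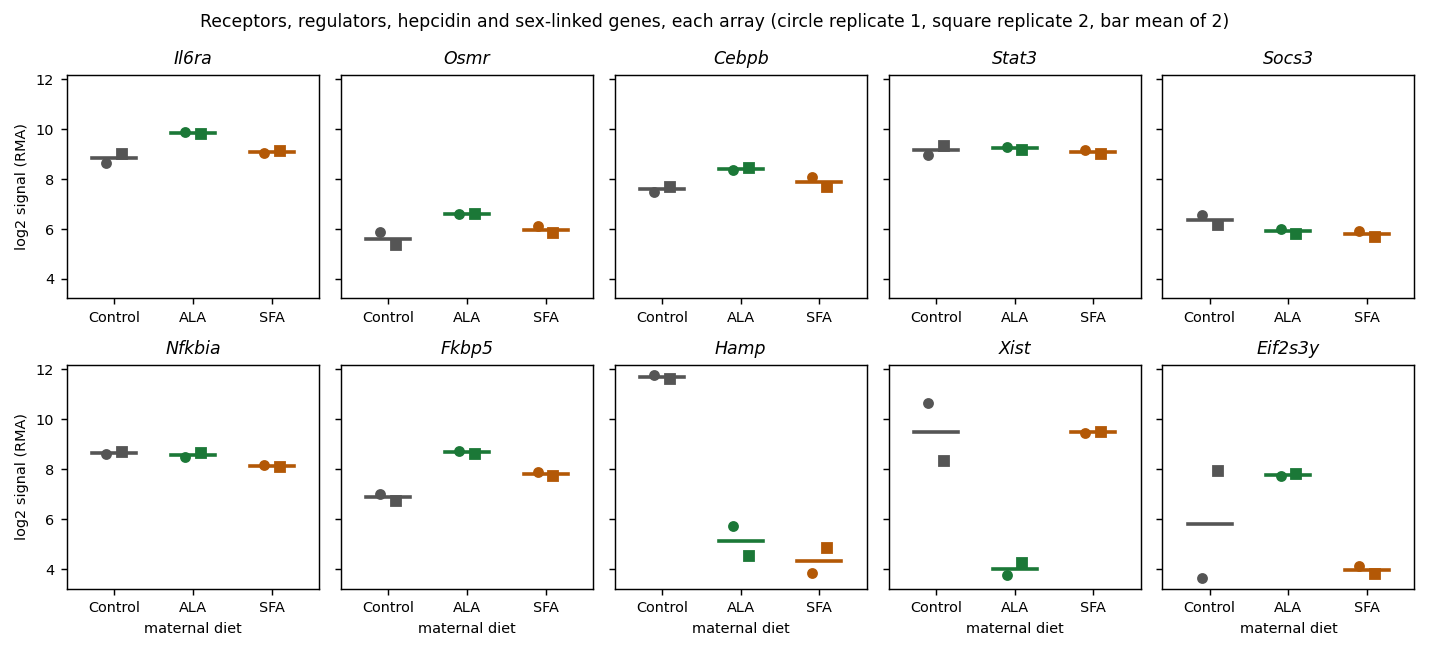
Log2 signal (vertical axis) of receptor, regulator, hepcidin and sex-linked genes by maternal diet (horizontal axis), with circles for replicate 1, squares for replicate 2 and bars for the mean of 2 arrays. Il6ra, Osmr, Cebpb and Fkbp5 are highest on both ALA arrays, Stat3 and Socs3 are not, and Eif2s3y is high on the ALA arrays and Control replicate 2 (7.74 to 7.95).

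Cytokine genes were low in these livers. Of 12 measured, 8 were below the signal minimum, among them Il6, from 2.80 to 3.85, and the other 4 were not called in any contrast by limma (1, 1 and 0 at an unadjusted p below 0.05 in the order given above). The gene of the neutrophil chemokine Cxcl1 was at 7.23 on Control replicate 2 and between 5.30 and 5.85 on the other arrays. Among genes of binding partners, the lipocalin-2 receptor gene Slc22a17 fell by 0.66 on SFA against control (SE 0.14, adjusted p = 0.0299). Cd163, the receptor gene for haptoglobin with haemoglobin, was below the signal minimum on every array.

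Lcn2, Saa3 and Hp are also expressed by cells other than hepatocytes. Of 19 neutrophil granule genes 12 were below the signal minimum. Their mean signal ran from 4.68 to 5.11 on the 6 arrays and was highest on SFA, and Ltf, Ly6g and S100a8 had mean signals below the minimum over all arrays. Ngp rose by 1.44 on SFA against control (adjusted p = 0.00538) and was lower on ALA than on SFA (-1.27, adjusted p = 0.0392). The lysozyme gene Lyz2, which macrophages share, rose on both diets, by 0.82 and 0.96, and S100a9 by 0.87 on SFA. Of 7 tested neutrophil granule genes, 1 was called higher on ALA and 3 on SFA, each against control. Over all genes these shares were 5.11% and 6.62%. Macrophage genes were higher on both diets: of 14 tested, 12 rose on ALA and 10 on SFA, with 5.11% and 6.62% of all genes called higher. The means over the 15 measured macrophage genes were 7.01 and 6.88 on Control, 8.18 and 7.80 on ALA, and 7.77 and 7.75 on SFA. The part of macrophages in the Saa3 and Lcn2 signals was not tested. In whole liver, fewer cells of a type and less RNA per cell cannot be told apart.

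For Dmbt1, markers of bile ducts and of gut and pancreas were examined. Of 6 tested bile duct genes 1 rose on ALA, the keratin gene Krt19 by 0.64 (adjusted p = 0.0432), and 1 fell on SFA, the cystic kidney gene Pkhd1 by 1.00 (adjusted p = 0.0121). Over all genes 5.11% were called higher on ALA and 7.15% lower on SFA. The means over 9 measured bile duct genes were 5.39 and 5.25 on Control, 5.62 and 5.45 on ALA, and 5.30 and 5.29 on SFA. Of 11 measured gut and pancreas genes 9 were below the signal minimum. Fabp2, an intestinal fatty acid binding protein gene, was called and fell by 1.08 on ALA and by 0.87 on SFA, with 2.82% and 7.15% of all genes called lower. The means were 4.45 and 4.35 on Control, 4.70 and 4.63 on ALA, and 4.28 and 4.36 on SFA. The part of either tissue in the Dmbt1 signal was not tested.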

How the data were processed

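The data are 6 Affymetrix arrays of newborn mouse liver RNA from 3 maternal diets, with groups and replicate numbers taken from the sample titles. The authors deposited log2 signals made with RMA in Partek 6.6, per the submitters' processing notes. The base of the logarithm was read from their range of 1.98 to 13.1. Background and summary settings are not given in the sources used here. RMA summaries compress differences of dim probes.

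Probes with 1 gene symbol in the platform annotation (21789 of 35556) were kept, 1 probe per gene. The 10977 genes with a mean log2 signal of at least 5 were tested in R 4.3.3 with limma 3.58.1. The model had 1 mean per diet over the 6 arrays (3 residual degrees of freedom), and p-values were adjusted by Benjamini-Hochberg over all tested genes. Genes with an adjusted p below 0.05 are called. Errors are standard errors of the fit, and the number of arrays limits the precision. The procedure was tested on simulated data.

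The members, gene lists and motifs were chosen with earlier results of these data known. All 10 members are named, and of each list the called genes, up to 6 per contrast, and some genes fixed by name, of which Il1r1 and Nfkb1 are not analysed here. For likeness, the 3 genes of highest Pearson's r are named for each member with a range of at least 1, leaving out gene models and pseudogenes. Other named genes were chosen after their values were seen. Promoters came from RefSeq (GRCm38.p6) and were aligned with Biopython 1.88. Protein sequences were not used here, so the planned protein identities were not computed. Alternatives were other signal minimums, scalings, probe summaries and fits, and each array left out.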

Additional observations from a re-analysis of the deposited data

How the results depend on the processing

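Apart from leaving out an array, no alternative turned the sign of a difference that it tested. A signal minimum of 6 tested 8 of the 10 genes, without Saa1 and Dmbt1. Without 1 array, Saa4 ran from -0.15 to 0.68 and Orm1 from -0.36 to 0.51 on ALA against control. Both were below 0 without ALA replicate 1 (-0.15 and -0.29) and without Control replicate 1 (-0.0069 and -0.36). On SFA against control, Saa1 ran from -2.14 (without Control replicate 1) to 0.045 (without Control replicate 2) and Lcn2 from -0.45 to 1.78. Dmbt1 on ALA against control passed in each setting that tested it, which leaves out the minimum of 6. Dmbt1 was picked with this difference known and reached the main minimum only through ALA, so its passing is no support for the comparison. The other calls depended on the setting, and the cause was not tested.

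For ALA against control (2 of the 10 genes called, 871 of all genes), 1 of the 10 was called with no signal minimum, with a minimum of 6, with 75th percentile centring, with a trended robust prior and with the 4 arrays of the contrast alone (448 of all genes). Leaving out an array gave 1 to 3 of the 10 and 267 to 475 of all genes. For SFA against control (1 and 1512), a minimum of 6, where Dmbt1 was not tested, gave 0 by limma (4 at an unadjusted p below 0.05), and the 4 arrays alone gave 3. Leaving out an array gave 0 to 3 and 245 to 1428.

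For ALA against SFA (2 and 168), the counts were 0 and 32 with no minimum, 3 and 293 with a minimum of 6, 1 and 100 with 75th percentile centring, 0 and 68 with quantile normalization, 0 and 76 with cyclic loess, 1 and 421 with a trended robust prior, and 1 and 11 with the 4 arrays alone. In the settings named here that gave 0, the unadjusted p was below 0.05 for 10 of the 10 genes. Leaving out an array gave 0 to 2 and 0 to 36. Same-numbered arrays did not deviate together over all tested genes (r from -0.03 to 0.02). These values cannot exclude a pairing of the pools that touches few genes, and the labels state none. With the replicate block, 1 of the 10 genes was called for ALA against control, 1 for SFA against control and 0 for ALA against SFA, where 0 of all genes were called by limma (9 of the 10 and 2393 of all genes at an unadjusted p below 0.05). Signals near those of the Y-linked genes on SFA arrays, as for Saa1 and Dmbt1, limit what can be said of fold sizes.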
